A study of Homo sapiens with 8 samples.

Results

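Among 8746 H3K79me2 regions deposited as different between control and LAMP5-AS1-targeted leukemia cells, 2187 (25.0%) lay in genes without any such H3K79me3 region. A region was assigned to every gene that the authors' promoter, exon, intron and UTR columns name for it. It was kept when it had at least 1 gene and none of its genes was named for any of the 13666 H3K79me3 regions. The remaining H3K79me2 regions were 6065 with a gene that also had an H3K79me3 region, called shared regions below, and 494 with no gene. Membership therefore follows from the deposited calls of both marks, and the lack of H3K79me3 regions is how the regions were chosen, not a result. It says nothing of the level of H3K79me3, because a gene whose H3K79me3 was alike in both conditions has no region either.

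The cells were MOLM-13, a human line from acute myeloid leukemia with a fused MLL gene. They carried the hairpin shNC (control) or shLAMP5-AS1, named for the long noncoding RNA antisense to LAMP5, and the transfection field calls the control an siRNA. For each mark and condition there was 1 ChIP and 1 input library, 8 libraries in all, so no test between conditions is possible and no p-value is given. The growth field describes a culture from a patient-derived xenograft and the treatment field names siRNAs against KLF11 and YAP, both at odds with the titles, which were followed here. All results come from 1 cell line, and no RNA level was measured in these files, so the knockdown itself is not checked here.

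The authors gave each region a score with a sign, and every score given here is from the authors' deposited table. The files and labels do not say which condition a negative score favours, so signs stand as in the table and neither a gain nor a loss is stated. Library depth is unknown, since the tables hold no read totals. Intervals are 95% Wilson intervals and cover counting error only. Positions are printed as the authors gave them. Their build is not GRCh38, and the submitters' notes otherwise name hg19. The base at which starts begin to count is not given.

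Lysine 79 lies on the globular core of histone H3, and DOT1L is the enzyme that adds methyl groups to it. DOT1L adds them step by step, so a dimethylated histone can become a trimethylated one. Both forms lie mainly over the first part of transcribed genes, and MLL fusion proteins recruit DOT1L to their target genes in leukemia.

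Promoter sequence was examined because 194 of the 2187 regions were annotated to a promoter. RefSeq promoters of GRCh38.p14, from 250 bases before to 50 after the gene start, were matched by symbol for 1144 of the 1477 genes that carry the regions. The letters CCGGAAG, the core bound by ETS family factors, were searched on both strands and occurred in 22.4% of the 1144 promoters (20.1 to 24.9). They occurred in 18.9% (17.1 to 20.8) of 1654 promoters of genes with both marks and in 14.2% of all 15842 protein-coding promoters. The first 2 intervals overlap. The stretches below are shown because the authors annotated a region to these genes' promoters, and they are the 4 largest scores of each sign among promoters with the core. Capitals mark the core or its reverse complement, each run is 27 bases read along the gene's strand, and GRCh38 positions cannot be set against those of the regions. Negative scores belong to GABPA, MEF2BNB-MEF2B, TMCO1 and TECPR1, and positive scores to LLPH, STOML2, SUDS3 and NSA2.
GABPA, chr21:25734896-25734922, plus strand: ctccgctctaCTTCCGGccctggctcc
MEF2BNB-MEF2B, chr19:19192141-19192167, minus strand: aacctccgggCTTCCGGtgccgtttcc
TMCO1, chr1:165768883-165768909, minus strand: gtgctatgccCCGGAAGcggaagtgcg
TECPR1, chr7:98252333-98252359, minus strand: tggcgcgaccCCGGAAGtgggcgggcg
LLPH, chr12:66130754-66130780, minus strand: tggcctccgcCCGGAAGacggaagtgc
STOML2, chr9:35103190-35103216, minus strand: gagggagctgCCGGAAGtacatccggg
SUDS3, chr12:118376481-118376507, plus strand: agctctcgacCCGGAAGtcgctcgcgg
NSA2, chr5:74767114-74767140, plus strand: cacctccacaCTTCCGGcggtgtaccg

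Among the 12 microRNA genes that carry a region, 3 are shown by their mature RefSeq sequences because each had a region annotated to its own promoter and is a widely expressed or well-studied microRNA. They were chosen after their values were seen. Capitals mark the seed, bases 2 to 8, which pairs with target messages. The 5 seeds shown all differ from each other, and the other mature sequence of MIR301A, miR-301a-5p, is not shown.
miR-142-3p: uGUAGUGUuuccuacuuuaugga
miR-142-5p: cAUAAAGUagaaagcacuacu
miR-9-5p: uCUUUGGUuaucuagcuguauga
miR-9-3p: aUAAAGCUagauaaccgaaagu
miR-301a-3p: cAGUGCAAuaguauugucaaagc

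The region at MIR142, which encodes a microRNA abundant in blood cells, scored 12.0 and lay at chromosome 17, 56409449 to 56409653, in an intron of BZRAP1-AS1. The region at MIR9-3, which encodes miR-9, scored -9.08 and lay in a CpG island at chromosome 15, 89911458 to 89911547. The region at MIR301A scored -10.2 and is annotated to SKA2 as well, a gene for a kinetochore protein. The sign thus differed among the 3 microRNA genes, and for MIR142 and MIR301A the region cannot be assigned to the microRNA rather than to the gene around it.

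The 2187 regions were divided almost evenly by sign, 1087 negative and 1100 positive. The negative share was 49.7% (47.6 to 51.8), against 57.5% (56.3 to 58.7) of shared regions and 55.3% of all H3K79me2 regions. The intervals of the first and second of these shares do not overlap. Regions of 1 gene are not independent, and the even split rests in part on 8 genes with 10 or more regions each. Those genes hold 95 regions, 19 of them negative (20.0%). Without them the negative share was 51.1% (48.9 to 53.2), which does not overlap the interval of shared regions. Matched for regions per gene, the intervals do overlap where genes have few. In genes with 1 region the negative share was 52.4% (49.2 to 55.7), against 55.5% (51.9 to 59.0) of shared regions. With 2 regions it was 52.6% (48.4 to 56.8) against 57.3% (54.0 to 60.5). With 3 to 4 it was 49.8% (45.0 to 54.5) against 59.6% (57.0 to 62.2). With 5 to 9 it was 44.4% (38.2 to 50.8) against 58.5% (56.1 to 60.8). The intervals of these last 2 comparisons do not overlap, but they treat regions of a gene as independent.

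The size of the score ran from 5.31 to 29.0, with a median of 10.2 and quartiles of 8.02 and 12.2. Shared regions had a median of 10.2 as well. In all, 1134 regions had a size of at least 10 and 36 had at least 20. The regions were short, 67 to 353 bp wide with a median of 86 bp, and together covered 210 kb. Score sizes took only 148 distinct values, so many regions are tied. The widest regions were those of DYNC1I1 (353 bp), AIM1 (294 bp), MAN2A1 (293 bp), NIPSNAP3B (286 bp) and ZNRF2 (285 bp).

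**Figure D1:**
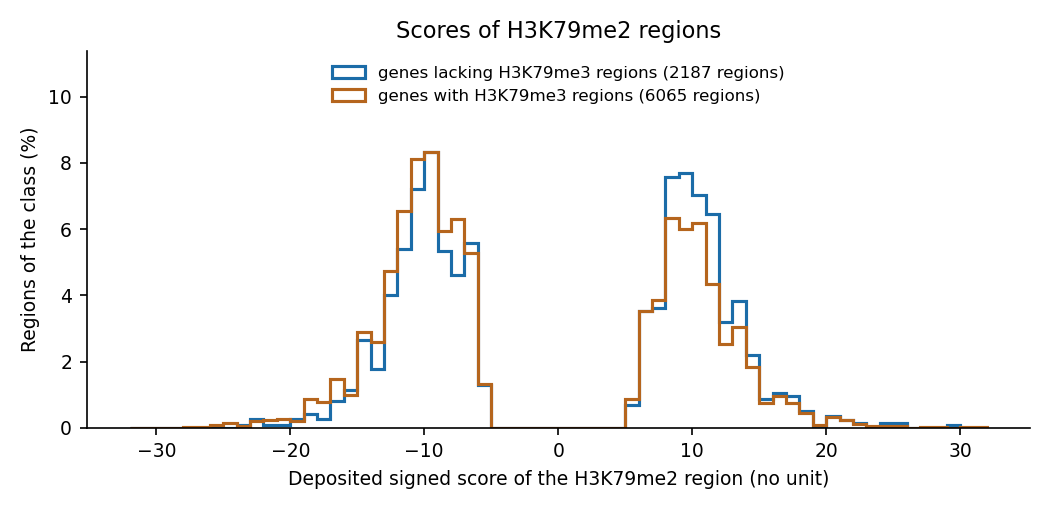
Distribution of the deposited signed score (x axis, no unit) as a share of regions (y axis, %) for H3K79me2 regions in genes lacking H3K79me3 regions and for shared regions. No score lies near 0, and the negative share is 49.7% in the former and 57.5% in the latter.

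By annotation, promoters held 194 (8.87%, 7.75 to 10.1), against 4.80% of shared regions (4.29 to 5.37) and 5.55% of all H3K79me2 regions. Exons and UTRs held 131 (5.99%, 5.07 to 7.06), against 3.51% of shared regions (3.08 to 4.01). Introns alone held 1893 (86.6%, 85.1 to 87.9), against 92.6% of shared regions. Over all genes these intervals do not overlap, but among genes with a single H3K79me2 region they do. There promoters held 12.6% of 906 regions (10.6 to 14.9) and 11.2% of 750 shared regions (9.14 to 13.7). Exons and UTRs held 8.28% (6.66 to 10.3) and 6.40% (4.86 to 8.38), and introns alone 80.5% (77.8 to 82.9) and 84.4% (81.6 to 86.8). In genes with 5 to 9 regions the promoter share was 1.71% (0.667 to 4.31) against 3.05% (2.33 to 3.98) of shared regions. In these genes the promoter shares were thus within counting error of each other.

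The widest gap was at CpG shores, the flanks of CpG islands. Of the 2187 regions, 477 lay in a shore (21.8%, 20.1 to 23.6), against 8.71% of shared regions (8.02 to 9.44) and 12.0% of all H3K79me2 regions. CpG islands held 60 (2.74%, 2.14 to 3.52), against 1.34% of shared regions (1.08 to 1.66) and 1.68% of all. Outside promoters the shore shares were 17.5% (15.9 to 19.2) and 6.32% (5.72 to 6.98). Shore shares also varied with the number of regions per gene, as given below. The comparison was therefore also made among genes with a single H3K79me2 region. There, outside promoters, 26.8% of 792 regions (23.8 to 30.0) and 14.6% of 666 shared regions (12.1 to 17.4) lay in a shore. In genes with 3 to 4 regions the shares were 7.58% (5.36 to 10.6) and 5.43% (4.33 to 6.79), with overlapping intervals. Counted once per gene, with any region of a gene counting, the shore share was 35.9% and the promoter share 18.5%. This count covers the 1361 genes without a tie in sign. Gene length was not compared, and its part in these shares was not tested.

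Sign differed with the CpG annotation, and a region can carry both island and shore. In islands 42 of 60 regions were negative (70.0%, 57.5 to 80.1), while in shores 216 of 477 were negative (45.3%, 40.9 to 49.8). Outside shores 50.9% of the regions were negative (48.6 to 53.3), an interval that overlaps that of shores. At promoters 103 of 194 were negative (53.1%, 46.1 to 60.0). Shared regions in islands were negative in 59.3% of 81 (48.4 to 69.3), an interval that overlaps that of the 60. Shared regions in shores were negative in 50.8% of 528 (46.5 to 55.0), against 58.2% of those outside shores, so a lower negative share in shores was present there too.

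The shares moved with the number of H3K79me3 regions in the gene. Regions just inside the rule, with 0 H3K79me3 regions, lay in shores in 21.8% and at promoters in 8.87%. For the 1290 regions just outside it, in genes with 1 H3K79me3 region, the shares were 14.2% and 6.59%. Shore shares went on to 9.96%, 7.66% and 3.30% in genes with 2 to 4, 5 to 9, and 10 or more H3K79me3 regions, and promoter shares to 5.94%, 3.65% and 2.83%. The negative share showed no such order, at 49.7%, 54.6%, 60.7%, 51.4% and 61.6%. Within the 2187 regions, whose genes all have 0 H3K79me3 regions, promoter shares also fell with the number of H3K79me2 regions in the gene. Shore shares fell up to 5 to 9 regions and then rose. From 1 to 2, 3 to 4, 5 to 9, and 10 or more of these, promoter shares were 12.6%, 9.77%, 5.71%, 1.71% and 0.0%, and shore shares 32.6%, 21.1%, 9.52%, 6.41% and 15.8%. At 10 or more, 15 of 95 regions lay in a shore, 10 of them in SHOX2. The part of the H3K79me2 count in the order by H3K79me3 count was not tested.

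**Figure D2:**
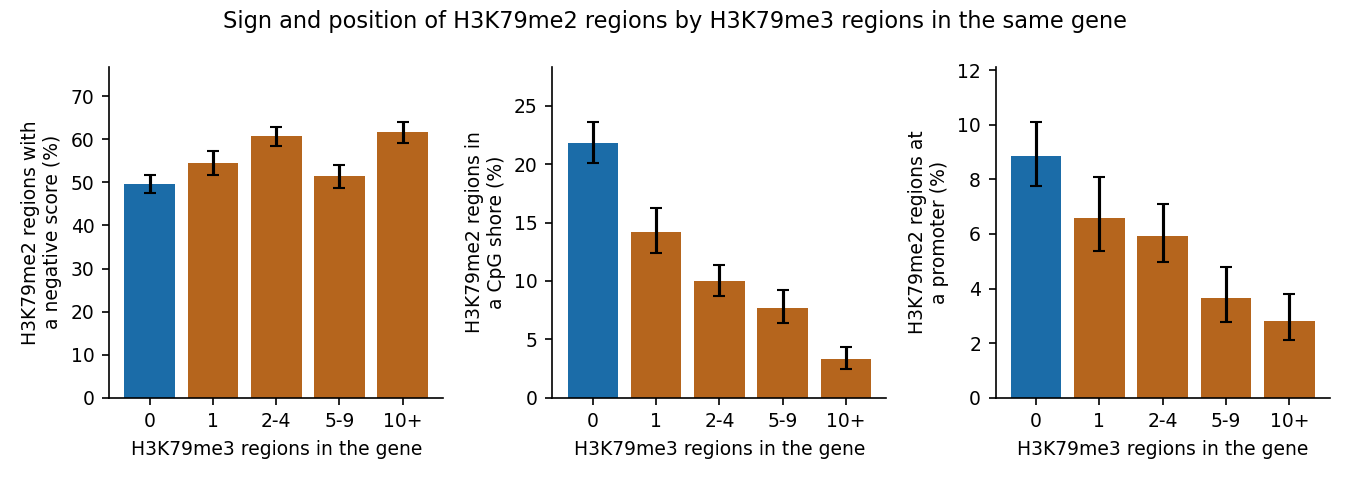
Share of H3K79me2 regions (y axes, %, with 95% Wilson intervals) by the number of H3K79me3 regions in the same gene (x axes). Shore and promoter shares are highest at 0 H3K79me3 regions (21.8% and 8.87%) and lowest at 10 or more (3.30% and 2.83%), while the negative share follows no order.

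None of the 2187 regions overlapped an H3K79me3 region, and the median distance to the nearest was 187 kb (quartiles 81.7 and 370 kb), against 4.69 kb for shared regions. This follows largely from the rule. The closest was at PRR34, 1.10 kb away with a score of 7.05. At BAHCC1 the distance was 1.59 kb and the score 13.6. In all, 61 regions lay within 10 kb of an H3K79me3 region and 1519 (69.5%) over 100 kb away.

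The regions named 1477 genes, of which 1353 were protein-coding, 53 long noncoding and 12 microRNA genes by RefSeq. Of the 3665 genes with any H3K79me2 region, 1585 (43.2%) lacked H3K79me3 regions. A single region was the whole record of 1023 genes (69.3%). By sign, 670 genes had negative regions only, 605 positive only and 202 both. Of 49 genes with 5 or more regions, 9 were all negative, 13 all positive and 27 mixed (44.9% of a single sign). Among 361 genes with 5 or more shared regions, 59 were all negative, 22 all positive and 280 mixed (22.4% of a single sign). These groups are not matched for regions per gene, since the most in a gene were 17 in the former and 115 in the latter.

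The 3 genes with the most regions, after those of mixed sign are set aside, were all positive. DYNC1I1, which encodes an intermediate chain of the dynein motor studied mostly in neurons, had 17 regions, all positive, within 15.0 kb of chromosome 7 (95706658 to 95721620). Its scores ran from 6.17 to 24.2 with a median of 11.2, and its region of 353 bp, at 95707933 to 95708286, was the widest of all 2187 and scored 21.5. MIR181A1HG, the host gene of a miR-181 pair, had 15 regions, all positive, over 24.0 kb of chromosome 1 (198879498 to 198903488). Its scores ran from 6.01 to 25.6 with a median of 10.7, and the highest lay at the far end, at 198903408 to 198903488. In both genes no region had a negative score.

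SHOX2, a homeobox factor of limb and heart development, had 11 positive regions in 5.98 kb of chromosome 3 (157816838 to 157822817). Their scores ran from 6.95 to 17.3 with a median of 13.2, and 10 of the 11 lay in a CpG shore. Its last region lay 3.91 kb from an H3K79me3 region that is not annotated to SHOX2, among the shortest such distances. PIK3AP1, an adaptor that links immune receptors to PI3-kinase, had 9 positive regions up to 17.3 and 1 negative region of -7.66. ZNRF2, a ubiquitin ligase, also had 9 positive, up to 17.5, and 1 negative of -9.32. PIK3AP1 and ZNRF2 were thus predominantly positive, and SHOX2 wholly so.

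ZCCHC7, part of a nuclear RNA surveillance complex, had 9 positive and 3 negative regions over 157 kb of chromosome 9. The 3 negative ones, -14.2, -10.2 and -9.17, were neighbours at 37140643 to 37149487. CHD7, a chromatin remodeller, had 8 positive regions up to 16.2 and 1 negative of -9.08. APBB1IP, which acts in integrin activation, had 7 positive regions of 8.26 to 16.2. PAG1, a membrane adaptor for the kinase CSK, had 7 positive regions of 8.23 to 18.6. RPRD1A, which binds the tail of RNA polymerase II, had 6 positive regions up to 17.5 and 1 negative of -10.3.

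Among genes with negative regions only, OSBPL3 had the most. OSBPL3, a lipid transfer protein, had 9 regions over 60.7 kb of chromosome 7 (24958490 to 25019151), with scores from -6.95 to -19.6 and a median of -10.2. MAN2A1, a Golgi mannosidase that trims N-glycans, had 7 negative regions from -6.90 to -17.5 over 66.8 kb. PDSS2, which acts in coenzyme Q synthesis, had 7 from -6.17 to -11.6 over 57.8 kb. None of the 3 genes had a positive region.

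VCL, which encodes the cytoskeletal linker vinculin, had 8 negative regions, the largest -15.5, lying between 2 positive regions of 12.2 and 13.7 at the ends of its run. MAP4K4, a kinase, had 6 negative and 4 positive regions. GRB10, an adaptor that dampens insulin signalling, had 6 negative regions of -6.90 to -15.0, and RPS6KA5, a kinase that phosphorylates histone H3, had 6 of -6.46 to -13.7. FBXO34, an F-box protein, had 6 of -6.68 to -12.5. AHI1, a cilium protein, had 5 of -8.02 to -10.5, and ROCK2, a kinase downstream of RhoA, had 5 of -6.95 to -11.3. Of these, VCL and MAP4K4 held both signs.

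**Figure D3:**
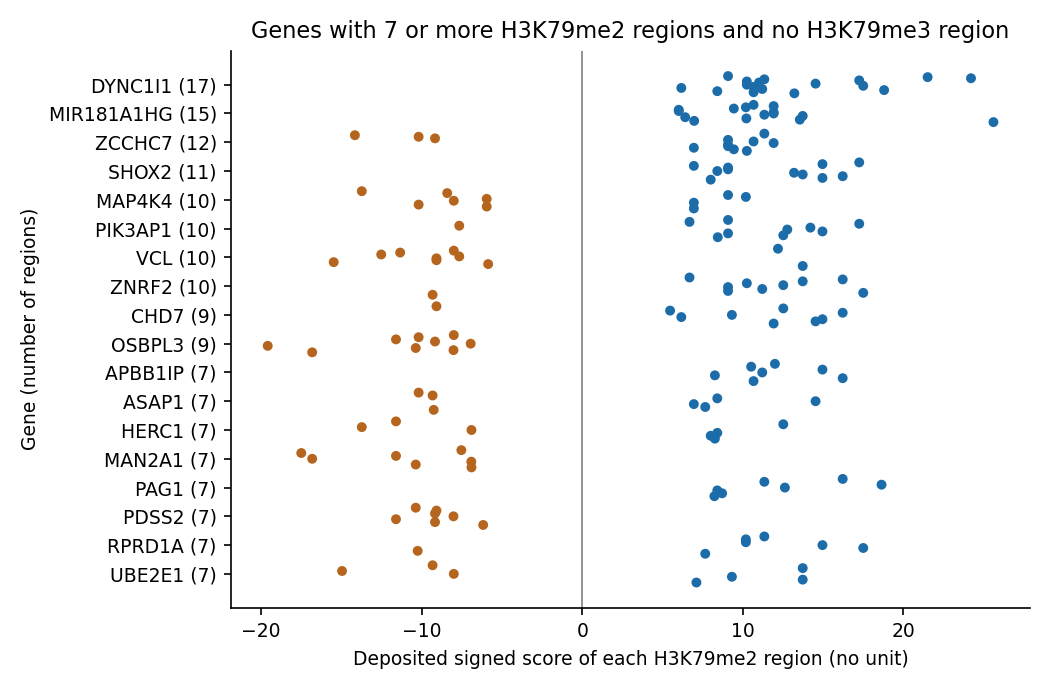
Deposited signed score of each region (x axis, no unit) in genes with 7 or more H3K79me2 regions and no H3K79me3 region (y axis, with the number of regions). DYNC1I1, MIR181A1HG and SHOX2 lie wholly to the right of 0 and OSBPL3, MAN2A1 and PDSS2 wholly to the left, while VCL, MAP4K4 and ZCCHC7 lie on both sides.

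Single large scores were found in other genes. The largest positive score, 29.0, was reached in CUX2, a homeobox gene with that region only, and in MXI1, an antagonist of MYC. MXI1 had 3 positive and 3 negative regions. Among other protein-coding genes, DYNC1I1 left aside, they were followed by ARFGEF2 and ENAM (26.0), TMEM50A (24.5), CCR1 (24.2), DSCR3 (23.0), TERF2 (22.8) and DESI2 (21.5). ENAM encodes a protein of tooth enamel, CCR1 a chemokine receptor of myeloid cells and TERF2 a telomere-binding protein.

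The largest negative score, -23.9, was in GOLT1B, a Golgi transport gene, at chromosome 12, 21657015 to 21657086. Its other region, at 21657363 to 21657436, scored 10.2, so scores of opposite sign lay within 0.421 kb. AP5M1 followed with -23.1. ATXN2, C17orf85, EIF2B5, PRKAR1A, STAU1 and TBC1D1 were tied at -22.8, and CNOT4 and IMPAD1 reached -21.5 and -21.0. IMPAD1 also had a region of 20.6 and STAU1, an RNA-binding protein, had 2 positive regions. EIF2B5, a subunit of the translation factor eIF2B, had only the 1 region.

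Neighbouring regions of a gene mostly shared their sign when close. Of 171 pairs of neighbours up to 1 kb apart, 154 had the same sign (90.1%, 84.7 to 93.7). The share was 69.2% of 279 pairs at 1 to 5 kb, 64.7% of 272 at 5 to 20 kb and 60.0% of 110 (50.7 to 68.7) at 20 to 100 kb. Neighbours in different genes shared their sign in 647 of 1327 pairs (48.8%, 46.1 to 51.4), but 1211 of these pairs were over 100 kb apart. At 20 to 100 kb, neighbours in different genes shared it in 53.4% of 103 pairs (43.8 to 62.7). That interval overlaps the one within genes. Within genes, shared regions gave 84.6% (81.7 to 87.1), 68.5%, 62.3% and 55.8% at the same distances, with overlapping intervals at each. GOLT1B is among the 17 pairs within 1 kb that had opposite signs.

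**Figure D4:**
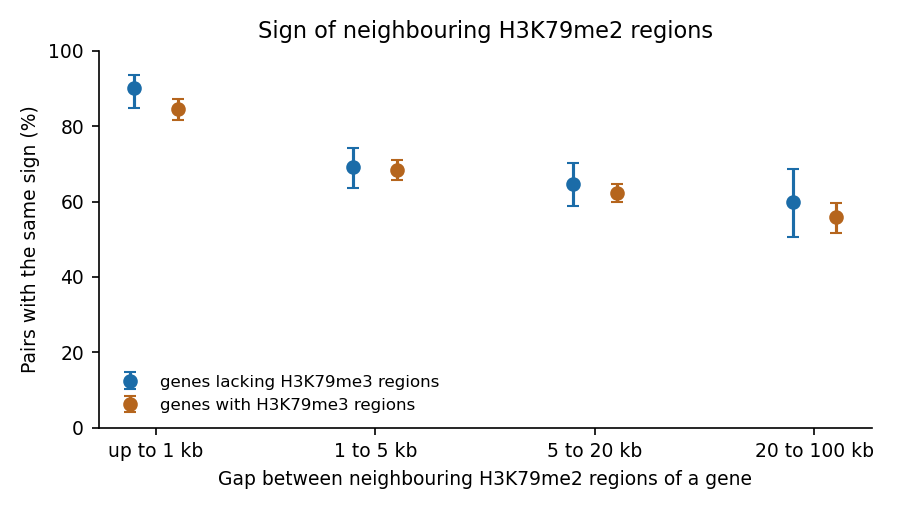
Share of neighbouring region pairs of a gene with the same sign (y axis, %, with 95% Wilson intervals) by the gap between them (x axis), for regions in genes lacking H3K79me3 regions and for shared regions. The share falls from 90.1% up to 1 kb to 60.0% at 20 to 100 kb in the former and from 84.6% to 55.8% in the latter.

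At promoters the largest negative scores were those of DSE and GABPA (both -18.8), TSPO2 (-18.2), LOC101926911 (-16.2) and METTL12 (-15.5). GABPA encodes an ETS family factor and shares its promoter region with ATP5J, a subunit of ATP synthase. A further GABPA region in an intron scored -15.0. SERTAD3 (21.0), LLPH (20.8), GAS6-AS2 (16.8), ANKMY1 (16.2) and DUSP28 (16.2) led the positive promoter regions. ANKMY1 and DUSP28 share 1 region, and STOML2 had the same score. LLPH also had an intron region of -10.5 that is annotated to the promoter of its antisense gene LLPH-AS1, so the gene pair carried both signs.

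The ETS core occurred in 38 of 123 matched promoters with a region (30.9%, 23.4 to 39.5). It was in 23 of 58 with a positive region (39.7%, 28.1 to 52.5) and in 15 of 66 with a negative region (22.7%, 14.3 to 34.2), and these intervals overlap. The GC box GGGCGG was in 70.5% of the 1144 promoters and in 58.5% of all. The CCAAT box CCAAT was in 37.3% and 36.4%, and the TATA box TATAAA in 4.90% and 9.63%. The YY1 core ATGGCGG was in 11.0% and 7.63%, and the NRF1 core CGCATGCGC in 5.16% and 2.76%, all on both strands. The median observed to expected CpG ratio was 0.857, against 0.887 in genes with both marks and 0.763 in all protein-coding promoters. Genes with both marks gave 71.7% for the GC box, 35.7% for CCAAT, 5.32% for TATAAA, 13.6% for the YY1 core and 4.17% for the NRF1 core, so they too differed from all promoters in the GC box, TATAAA, YY1 and NRF1 letters.

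Among gene lists, the share of genes lacking H3K79me3 regions can be read against 43.2% of all 3665 genes with H3K79me2 regions. It was low for MLL fusion targets, with 7 of 34 (20.6%, 10.3 to 36.8). Their 11 regions, 3 negative and 8 positive, lay in 6 genes. HOXA13, a posterior HOX gene, had 3 positive regions of 20.1, 11.3 and 15.0, the last shared with HOTTIP. HOXA11 had 1 region of -10.1, in a CpG island. BAHCC1 had 3 positive regions up to 13.6, ELL 1 of 7.09, CDCA7L 1 of -6.95, and UBASH3B 1 of each sign. Shared regions of these target genes were 199 negative and 92 positive.

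Of 13 genes of DOT1L and elongation complexes, 3 lacked H3K79me3 regions (23.1%). AFF4, a scaffold of the super elongation complex, had 2 negative and 1 positive region, the largest -15.5, and SUPT4H1, a subunit of an elongation factor, had -7.29. Of 10 myeloid differentiation genes with an H3K79me2 region, among 41 listed, 3 lacked H3K79me3 regions (30.0%, 10.8 to 60.3), all with positive scores. Shared regions of the listed myeloid genes were 7 negative and 11 positive. The chemokine receptor gene CCR2 had 16.3 and 10.9, the myeloperoxidase gene MPO had 13.2 at its promoter, and CSF1R, the receptor for M-CSF, had 9.08. Of 30 listed markers of other lineages 0 had an H3K79me2 region. Since a gene marked alike in both conditions has no region, and only 10 of the 41 myeloid genes have one, these counts do not check the cell type. Of 9 housekeeping genes with an H3K79me2 region 1 lacked H3K79me3 regions, LDHA with 6.91.

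Immune surface and cytokine receptor genes, chosen by symbol prefix, lacked H3K79me3 regions in 13 of 35 (37.1%, 23.2 to 53.7). Of their 17 regions 15 were positive, and 11 of the 13 genes had positive regions only. CD180, a Toll-like receptor homologue of B and myeloid cells, had 3 (9.44, 10.2 and 7.11). CD244 had 17.5, the maturation marker CD83 13.2, and the bacterial lipoprotein receptor TLR2 7.53. The 2 negative genes were CD38 (-10.2) and CD99L2 (-6.90). Shared regions of such genes were 37 negative and 12 positive. G protein-coupled receptors had 4 negative and 9 positive regions and lacked H3K79me3 regions in 11 of 19 (57.9%), with ADRB1 at -12.5 and PTGER4 at 12.6. Their shared regions were 32 negative and 9 positive. No list was tested, and regions of 1 gene are not independent.

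Shares above 43.2% were found for noncoding genes and for several protein-coding lists. Genes with microRNA or snoRNA symbols, host genes included, lacked H3K79me3 regions in 40 of 61 (65.6%, 53.0 to 76.3). Their 34 regions were 7 negative and 27 positive, 15 of the latter in MIR181A1HG. Long noncoding and antisense genes lacked them in 88 of 144 (61.1%, 53.0 to 68.7), with 40 negative and 35 positive regions. Ion channel genes lacked them in 11 of 18 (61.1%, 38.6 to 79.7), among them KCNQ5 with 3 negative and 1 positive region. After these and the G protein-coupled receptors came a list of cadherins, collagens, laminins and integrins with 5 of 9 (55.6%). Its lacking genes include ITGA1, ITGAE and ITGB1BP1, caught by the integrin prefixes. Solute carriers and ABC transporters followed with 33 of 64 (51.6%) and zinc finger genes with 40 of 84 (47.6%, 37.3 to 58.2), where ZNF548 reached 21.5. The list of synaptic and large neuronal genes had 2 genes, of which PTPRT (16.4) lacked H3K79me3 regions. Intervals of the microRNA and long noncoding lists lie above 43.2%. Yet only 20 of the 40 microRNA and snoRNA genes and 58 of the 88 long noncoding genes carry a region examined here. Each H3K79me2 region of the remaining genes also names a gene with H3K79me3 regions. Genes that carry an examined region were 20 of 61 and 58 of 144, against 1477 of all 3665. The excess of both lists was thus not present among genes that carry such a region.

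Low shares were found for chromatin modifiers, 12 of 54 (22.2%, 13.2 to 34.9), RNA splicing genes and helicases, 14 of 60 (23.3%, 14.4 to 35.4), homeobox and related factors, 7 of 29 (24.1%, 12.2 to 42.1), and ubiquitin enzymes, 38 of 122 (31.1%, 23.6 to 39.8). The intervals of these 4 lists and of MLL fusion targets lie below 43.2%, without matching for H3K79me2 regions per gene. KDM3A, an H3K9 demethylase, had 3 positive regions up to 18.8, PHF13, a reader of H3K4me3, had -15.5, and the deubiquitinase USP19 reached 20.1. Small GTPases and their regulators stood at 43.5% (37 of 85), kinesins, dyneins and myosins at 41.7% (10 of 24), ribosomal, translation and mitochondrial genes at 41.1% (44 of 107), protein kinases and phosphatases at 39.1% (34 of 87) and cyclic nucleotide enzymes at 30.8% (4 of 13). The motor list also takes in tubulin and centrosomal protein (CEP) symbols, and the cyclic nucleotide list takes in the anchoring proteins AKAP11 and AKAP13. Of 26 regions in the motor list, 17 were those of DYNC1I1.

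**Figure D5:**
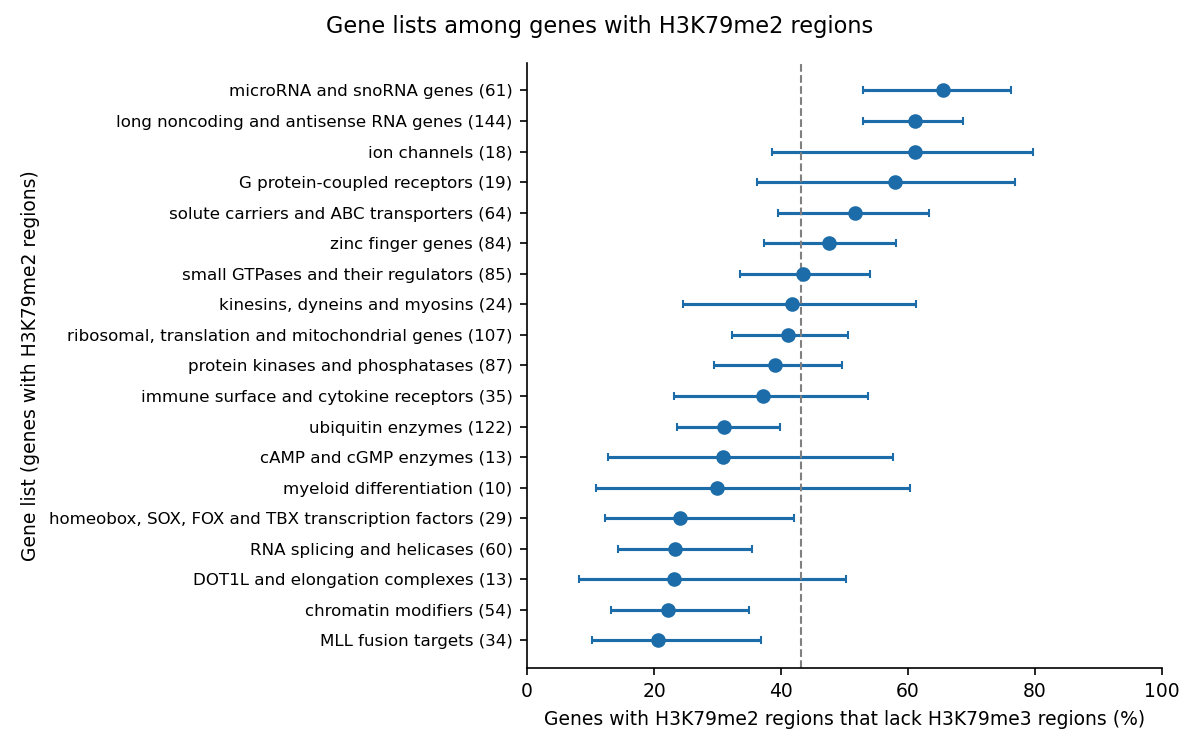
Share of genes lacking H3K79me3 regions among genes with H3K79me2 regions (x axis, %, with 95% Wilson intervals) for lists with at least 10 such genes (y axis, with their number), with a dashed line at 43.2%. MicroRNA and long noncoding genes lie highest among lists of over 20 genes (65.6% and 61.1%) and MLL fusion targets lowest (20.6%), around the 43.2% of all genes. Of the lacking genes in the first 2 of these lists, 20 of 40 and 58 of 88 carry a region examined here.

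Across chromosomes the negative share ran, among those with at least 40 regions, from 35.7% of 42 on chromosome 18 (23.0 to 50.8) to 62.8% of 129 on chromosome 6 (54.2 to 70.6). Chromosome 14 had 62.0% of 79, with FBXO34 and RPS6KA5 on it. Chromosome 7 had 41.8% of 146 (34.1 to 49.9). It holds the 17 positive regions of DYNC1I1, but also 9 negative regions of OSBPL3 and 6 of GRB10. Chromosome 1, which holds MIR181A1HG, had 42.6% of 190.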

How the data were processed

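ChIP-seq regions of H3K79me2 and H3K79me3 were analysed as 1 deposited table per mark, each comparing shNC with shLAMP5-AS1. Per the submitters' processing notes, the authors used DESeq2, bedtools, MACS2 2.1.1 and Bowtie2. The same notes name hg19, hg38 and GRCh38, with no role or order. The deposited score has a sign but no unit of its own, per the file headers, and its sign matched the region name in all 2187 members. How the authors made the score is not given in the sources used here. Replicate spread cannot be estimated with 1 library per group, and depth is unknown.

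Regions were assigned to genes from the promoter, exon, intron and UTR columns. Members were then counted by sign, annotation and distance (overlap of at least 1 bp), with 95% Wilson intervals and no test. The members and lists were chosen with earlier results of these data known. Of 23 lists, 6 name genes and 17 use symbol prefixes, which catch some unrelated symbols. Some list names are narrower than their prefixes, which add integrins, tubulins, centrosomal proteins, AKAP anchors and ATPase pumps. Named genes were, for either sign, 10 protein-coding genes by score size, the 10 with the most regions and the 5 with the largest promoter score; the 5 widest regions; the 5 genes with most regions of both signs; and up to 4 genes per list. Ties were broken alphabetically. Other genes named were chosen after their values were seen. RefSeq (GRCh38.p14) gave names for 1451 of 1477 symbols (98.2%), gene types and sequences. Alternatives tried were a minimum score size of 10, merging within 5 kb, a single value per gene, and other membership rules. Counting was tested on simulated data. Figures were drawn with matplotlib 3.10.9 and values computed with pandas 2.3.3, numpy 2.4.6 and scipy 1.17.1 under Python 3.11.15, with seed 1.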

Additional observations from a re-analysis of the deposited data

How the results depend on the processing

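Each of 10 results was computed again under 10 alternatives, which gave 98 values. Of these, 69 moved by less than their interval or by less than 1.5 times and 29 moved further. The alternatives that leave out genes with 10 or more regions, and all those on CpG annotation, were chosen after seeing the data. With a score size of at least 10, the number of regions was 1134, the negative share 47.5%, the median size 11.9, the median width 89 bp, the genes 872 and the single-region share of genes 76.1%. Counted once per gene, the negative share was 52.0%, promoters 18.5%, introns only 74.4%, shores 35.9% and islands 4.63%. The sign was that of most regions of the gene, and genes with a tie were left out, which left 1361. Any region of a gene counted for promoters, shores and islands, while introns only required all of them. Merging regions of 1 sign within 5 kb gave promoters 10.2%, introns only 84.9%, a width of 91 bp, single-region genes 78.6% and shores 24.1%. Requiring only 1 gene of a region to lack H3K79me3 regions gave promoters 11.7% and introns only 83.5%. Counting only H3K79me3 regions of score size 10 or more gave 3390 regions, promoters 7.55%, introns only 88.9%, single-region genes 63.7% and shores 18.4%. Keeping regions over 100 kb from any H3K79me3 region gave promoters 6.91%, introns only 89.1%, genes 961, single-region genes 65.7%, shores 17.8% and islands 1.71%. The causes of these moves were otherwise not tested. A single value per gene gives neither a number of regions nor a single-region share. No paired analysis was possible because each group held 1 library and the labels carry no replicate numbers. Depth is unknown, the sign is undefined and counting intervals treat regions as independent, so they are too narrow where a gene holds many.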

Other observations

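Beside the 1477 genes above, 108 genes lacked H3K79me3 regions of their own but were left out, because each of their H3K79me2 regions also names a gene that has one. In all, 137 regions name a gene with and a gene without H3K79me3 regions. Of the 1477 genes, 5 had an H3K79me3 region within 2 kb by the authors' annotation, which the gene assignment used here does not count.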
